A study of Homo sapiens with 2 samples.

Results

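The genes described here encode the machinery that carries proteins into mitochondria. They are the genes whose symbol starts with TIMM, TOMM, PAM16, DNLZ, GRPEL, SAMM50, MTX, CHCHD or IMMP, without pseudogenes and without symbols that hold a hyphen. This rule found 44 of the 53737 genes of the tables, and it used names only, not levels. Of the 44, 42 reached 1 per-million unit in at least 1 library and were compared. TOMM20L and TIMM50 were listed at 0 in both libraries. RNA came from SK-ES-1, an established human Ewing sarcoma cell line whose genotype is given as WT in both groups, with 1 library of slow-cycling cells (SCCs) and 1 of the remaining, non-slow-cycling cells (non-SCCs). The comparison asks which transcripts differ between slowly dividing cells of the line and the others. The isolation of the slow-cycling cells was not described, and the tables name the groups LRC and non-LRC without explaining these terms.

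Nearly all mitochondrial proteins are made in the cytosol and imported. The TOM complex of the outer membrane is the common entry gate. Behind it, the SAM complex inserts barrel proteins into the outer membrane, the small TIM chaperones escort hydrophobic precursors across the intermembrane space, and the TIM22 and TIM23 complexes place proteins in or across the inner membrane. A motor built around the mitochondrial HSP70, HSPA9, pulls precursors into the matrix, and the oxidoreductase CHCHD4 traps small cysteine-rich proteins in the intermembrane space by forming disulfide bonds. Growing cells need this import for respiration, for the mitochondrial ribosome and for iron-sulfur cluster assembly.

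Levels are per-million units, back-transformed from deposited log2 values that were read as log2(level + 1). Whether they are per transcript length was not stated, so levels are compared between the libraries and not between genes. A log2 ratio is the log2 value in the slow-cycling minus that in the non-slow-cycling library, so a negative ratio means less transcript in the slow-cycling library. With 1 library per group no difference below has a replicate check and no test could be made. In such bulk RNA, fewer cells of a kind and less RNA per cell cannot be told apart.

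Both libraries held values above 0 for a similar number of table lines, 14606 in SCCs and 14197 in non-SCCs, and their read depth was unknown. All 8 Ewing sarcoma markers, among them CD99, NKX2-2 and NR0B1, were tested, with summed levels of 1245 in SCCs and 1315 in non-SCCs. The endothelial markers PECAM1, VWF and CDH5, the leukocyte markers PTPRC and CD3E, the epithelial markers CDH1 and KRT5 and the osteoblast markers IBSP and SP7 were listed at 0 in both. The macrophage marker CD68 was at least 1.5-fold higher in SCCs. The 6 fibroblast markers summed to 174 in SCCs and 159 in non-SCCs, with 4 of the 5 tested at least 1.2-fold higher and LUM at 0.0175 in SCCs and listed at 0 in non-SCCs. Their part in the ratios of the import genes was not tested.

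Ratios of the import genes were small, and most were below 0. Their median log2 ratio was -0.15, against 0.03 for all 13444 tested genes, with the middle of the import genes between -0.27 and -0.04 (quartiles). A ratio below 0 was found for 34 of the 42 genes, 81.0% of them, against 43.8% of all tested genes. Of the 42, 12 were at least 1.2-fold lower, against 7.59% of all tested genes, and none was at least 1.2-fold higher, against 17.4%. No import gene differed by 1.5-fold in either direction, which 1.41% of all tested genes did downwards and 5.38% upwards. Summed over the 44 genes, the levels were 3656 in SCCs and 4117 in non-SCCs, a difference of -11.2%.

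**Figure D1:**
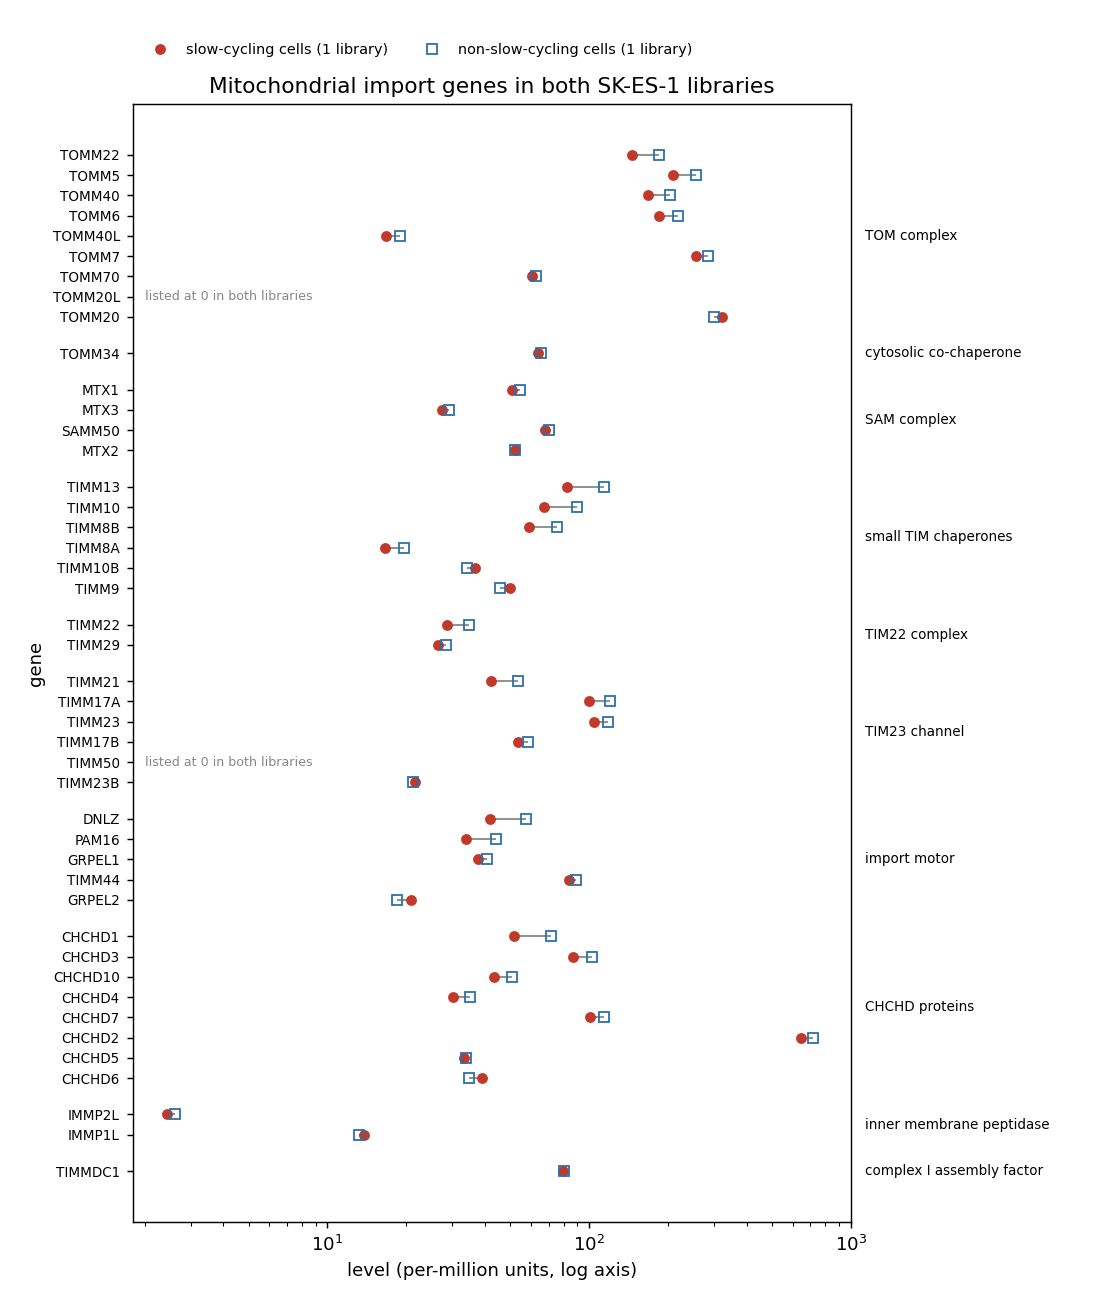
Levels of the 44 import genes (rows, grouped by role) in per-million units on a log axis, with filled circles for the slow-cycling and open squares for the non-slow-cycling library, 1 library each, and grey lines joining them. Most circles lie left of their squares, as 34 of the 42 tested genes have a ratio below 0, while TOMM20, TIMM9, CHCHD6 and GRPEL2 have the circle to the right.

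**Figure D2:**
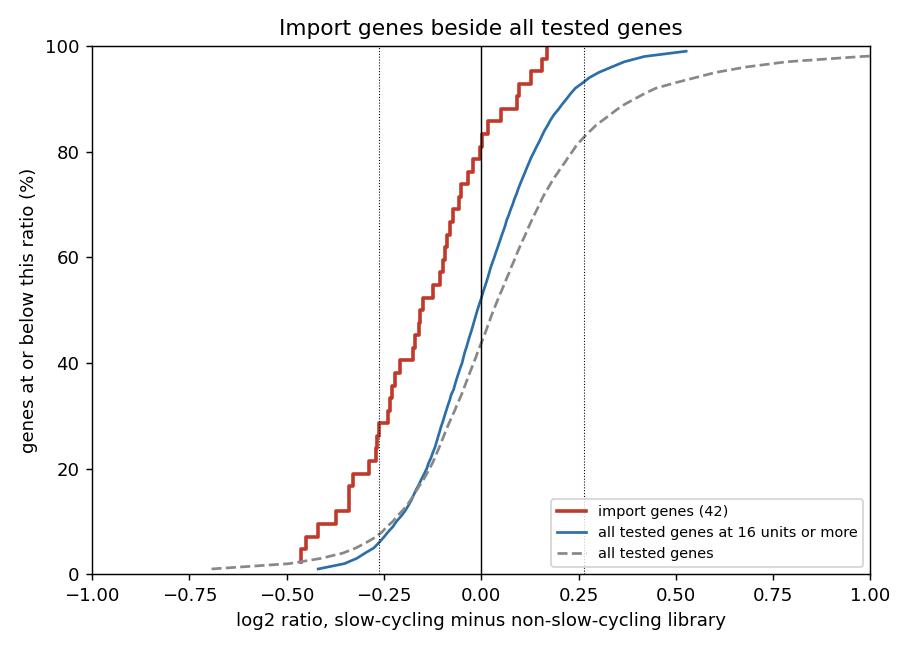
Share of genes (percent) at or below each log2 ratio for the 42 tested import genes (red steps), for all tested genes at 16 units or more (blue) and for all tested genes (grey dashes); dotted lines mark 1.2-fold. The red steps lie left of the other curves over most of the range and end at 0.17, short of the upper 1.2-fold line.

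Of the 8 tested genes of the TOM complex, 3 were at least 1.2-fold lower and 7 had a ratio below 0. Of all tested genes, 7.59% were at least 1.2-fold lower and 43.8% had a ratio below 0. At mean levels of 64 or more, where most TOM genes lay, these shares were 6.99% and 66%. The median log2 ratio of the complex was -0.20. TOMM22, the central receptor that also joins the pores together, was at 146 in SCCs and 185 in non-SCCs, a log2 ratio of -0.34. TOMM40, the barrel that forms the pore itself, was at 168 in SCCs and 203 in non-SCCs, a ratio of -0.27, and its relative TOMM40L was at 16.8 in SCCs and 18.9 in non-SCCs. TOMM5, TOMM6 and TOMM7 are small subunits that stabilise or regulate the complex, and TOMM5 was the one of them past 1.2-fold. It was at 209 in SCCs and 256 in non-SCCs, a ratio of -0.29. Of the exon bases of TOMM5, 14.3% and 9.33% lie in other gene models on the same strand. TOMM6 was at 185 in SCCs and 218 in non-SCCs, a ratio of -0.23, and all of its exon bases also lie in another annotated gene model on the same strand. TOMM7, which also takes part in holding the kinase PINK1 at the outer membrane, was at 256 in SCCs and 284 in non-SCCs, a ratio of -0.15.

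The other receptors of the outer membrane had ratios nearer to 0 or above it. TOMM20, the receptor for cleavable targeting sequences, was at 322 in SCCs and 301 in non-SCCs, the one ratio above 0 in the complex at 0.10. TOMM70, the receptor for carrier proteins delivered by cytosolic chaperones, was at 60.2 in SCCs and 62.4 in non-SCCs, a ratio of -0.05. TOMM34, a cytosolic co-chaperone of import, was at 63.9 in SCCs and 65.4 in non-SCCs. Thus the ratio of TOMM22 to TOMM20 was 0.452 in SCCs and 0.613 in non-SCCs, a comparison chosen after the values were seen. Such a ratio of levels can be read between the libraries only, since the transcripts differ in length. Abundant genes in general had lower ratios, and after the median ratio of genes of like level was subtracted TOMM22 stayed past 1.2-fold at -0.27, while TOMM5 was at -0.20 and TOMM40 at -0.19. With length and GC trends also removed, no TOM gene was past 1.2-fold, and the complex had a median of -0.12. TOMM22 was then at -0.25, TOMM40 and TOMM5 were both at -0.15, TOMM6 was at -0.10 and TOMM7 at -0.013.

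Promoter stretches of TOMM40, TOMM7 and TOMM20 are shown because these subunits of the same complex have ratios of -0.27, -0.15 and 0.10. They come from RefSeq (GRCh38.p14), lie before the first transcribed base outside annotated exons, and are written 5′ to 3′ on the strand of the gene. Capitals mark the motif GCGCNNGCGC of NRF1, a transcription factor known for activating nuclear genes of mitochondria, in TOMM40 and TOMM7, and the E-box CACGTG, which MYC and related factors bind, in TOMM20. The TOMM20 window also holds GCGCNNGCGC and CCGGAAGT nearer to its start, outside the stretch printed here, so the NRF1 motif is in all 3 windows. Whether a motif goes with the ratio was not tested. The TOMM40 stretch is chr19:44891004-44891081 on the plus strand, 250 to 173 bases before the start. The TOMM7 stretch is chr7:22822853-22822903 on the minus strand, 54 to 4 bases before the start. The TOMM20 stretch is chr1:235128960-235129045 on the minus strand, 208 to 123 bases before the start.
TOMM40: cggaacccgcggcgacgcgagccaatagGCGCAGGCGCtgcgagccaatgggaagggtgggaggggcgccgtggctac
TOMM7: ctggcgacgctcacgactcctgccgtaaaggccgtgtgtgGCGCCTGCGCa
TOMM20: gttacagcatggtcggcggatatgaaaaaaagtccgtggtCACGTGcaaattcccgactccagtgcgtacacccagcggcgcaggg

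None of the 4 genes of the SAM complex was past 1.2-fold, and their median log2 ratio was -0.07, or -0.016 with level, length and GC trends removed. Of all tested genes, 7.59% were lower and 17.4% higher by at least 1.2-fold. SAMM50, the barrel that folds and inserts other barrel proteins, was at 67.8 in SCCs and 70.5 in non-SCCs. Its partners are the metaxins. MTX1 was at 50.9 in SCCs and 54.4 in non-SCCs, a ratio of -0.09, with 17.3% of its exon bases in an antisense gene model. MTX2 was at 52.1 in both libraries, and MTX3 was at 27.5 in SCCs and 29.1 in non-SCCs.

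The small TIM chaperones lay on both sides of 0. Their median log2 ratio was -0.28. A ratio below 0 was found for 4 of the 6 genes, against 43.8% of all tested genes, and 2 were above 0. Of the 6, 3 were at least 1.2-fold lower, against 7.59%. TIMM13 was at 82.5 in SCCs and 114 in non-SCCs, and its log2 ratio of -0.46 was the lowest of all 42 import genes. TIMM13 forms a hexamer with TIMM8A, the gene mutated in deafness-dystonia syndrome, which was at 16.6 in SCCs and 19.6 in non-SCCs, a ratio of -0.23. TIMM8B, a close relative of TIMM8A, was at 59.1 in SCCs and 75.03 in non-SCCs, a ratio of -0.34. TIMM10 and TIMM9 build the main hexamer, and their transcripts lay on opposite sides of 0. TIMM10 was at 67.0 in SCCs and 89.97 in non-SCCs, a log2 ratio of -0.42. TIMM9 was at 49.9 in SCCs and 45.6 in non-SCCs, a ratio of 0.13. The ratio of TIMM10 to TIMM9 was thus 1.34 in SCCs and 1.97 in non-SCCs, a comparison also chosen after the values were seen. TIMM10B, which holds the hexamer at the TIM22 complex, was at 36.5 in SCCs and 34.2 in non-SCCs, a ratio of 0.09.

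Some of these genes share exon bases with neighbours, which limits what their counts can show, since how reads were counted, and whether by strand, was not stated. In the GENCODE 29 annotation, 13.0% of the exon bases of TIMM13 also lie in exons of LMNB2 on the same strand, and LMNB2 was at 213 in SCCs and 234 in non-SCCs. Of TIMM8B, 30.1% lie opposite exons of NKAPD1, and of TIMM9 14.9% lie opposite KIAA0586. Of TIMM10B, 13.5% lie in another gene model on the same strand. TIMM10 shared none.

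**Figure D3:**
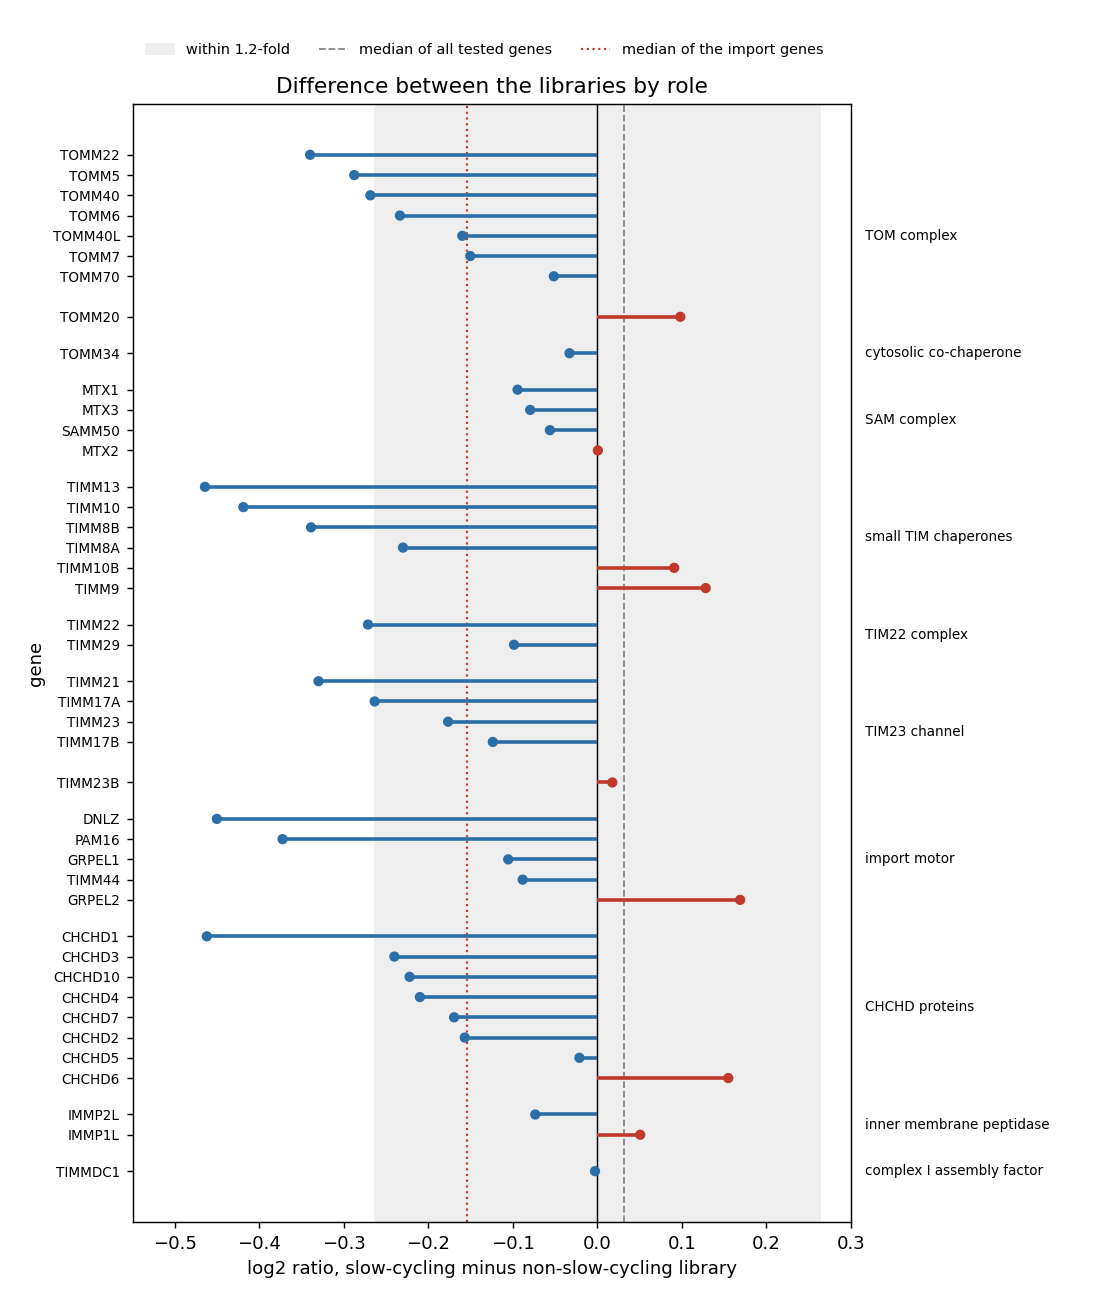
Log2 ratio, slow-cycling minus non-slow-cycling library, of the 42 tested import genes (rows, grouped by role), with the grey band for differences within 1.2-fold, the dashed line at the median of all tested genes and the dotted line at the median of the import genes. The 12 genes left of the band include TIMM13, CHCHD1, DNLZ and TIMM10, and no gene lies right of it.

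TIM23 is the presequence translocase of the inner membrane. Of its 5 tested genes, 2 were at least 1.2-fold lower, against 7.59% of all tested genes. A ratio below 0 was found for 4, against 43.8%. The median log2 ratio of the 5 was -0.18, and -0.09 once level, length and GC trends were removed. TIMM21, which links TIM23 to the TOM complex and to the assembly of respiratory chain complexes, was at 42.1 in SCCs and 53.2 in non-SCCs, a log2 ratio of -0.33. TIMM17A, a core subunit whose protein is broken down under stress, was at 100.2 in SCCs and 120 in non-SCCs and only just past 1.2-fold, at -0.26, and was at -0.22 once the level trend was removed. CHCHD3, the next gene above it, was at -0.24 and just short of 1.2-fold. The channel gene TIMM23 was at 105 in SCCs and 118 in non-SCCs, a ratio of -0.18, and TIMM17B, on the X chromosome, was at 53.7 in SCCs and 58.5 in non-SCCs, a ratio of -0.12, which was -0.024 with those trends removed. TIMM23 and TIMM23B are copies of each other on chromosome 10, so reads can be split between them and both values are uncertain. TIMM23B was at 21.6 in SCCs and 21.3 in non-SCCs. TIMM50, the receptor of TIM23, on chromosome 19 (39480838 to 39493779, GRCh38), was listed at 0 in both libraries. All 13 protein-coding genes of mitochondrial DNA were also listed at 0, so a 0 in these tables can be a failed estimate and says nothing on whether TIMM50 was expressed.

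The carrier translocase TIM22 has its channel in TIMM22. That gene was at 28.6 in SCCs and 34.7 in non-SCCs, a log2 ratio of -0.27. TIMM29, a subunit that keeps the complex in contact with TOM, was at 26.5 in SCCs and 28.5 in non-SCCs, a ratio of -0.10. TIMMDC1, which carries the family name but assembles respiratory complex I, was at 79.7 in SCCs and 79.8 in non-SCCs.

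Of the 5 genes of the import motor, 4 had a ratio below 0, against 43.8% of all tested genes. At least 1.2-fold lower were 2, against 7.59%, and the median log2 ratio of the 5 was -0.11. DNLZ, the protein that keeps HSPA9 soluble, was at 41.6 in SCCs and 57.2 in non-SCCs, a log2 ratio of -0.45. Its exons overlap those of CARD9 on the same strand in 22.9% of bases, and CARD9 was at 0.781 in SCCs and 0.793 in non-SCCs. PAM16, which restrains the J protein that stimulates HSPA9, was at 33.7 in SCCs and 44.0 in non-SCCs, a ratio of -0.37. A read-through model, CORO7-PAM16, covers 21.9% of the PAM16 exon bases and was itself at 7.67 in SCCs and 9.82 in non-SCCs. Both values can draw on the same reads, so they are not separate readings of the locus. TIMM44, which tethers HSPA9 to the channel, was at 83.9 in SCCs and 89.2 in non-SCCs, a ratio of -0.09. GRPEL1, the main nucleotide exchange factor of HSPA9, was at 37.6 in SCCs and 40.5 in non-SCCs, a ratio of -0.11. GRPEL2, its relative, was at 20.8 in SCCs and 18.4 in non-SCCs, and its ratio of 0.17 was the highest of the 42 genes.

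CHCHD proteins carry pairs of cysteines that are oxidised in the intermembrane space. Of their 8 genes, 7 lay below 0 (median log2 ratio -0.19), against 43.8% of all tested genes. CHCHD4, the oxidoreductase that imports such proteins, was at 30.2 in SCCs and 35.1 in non-SCCs, a log2 ratio of -0.21. CHCHD1, a protein of the small subunit of the mitochondrial ribosome, was at 51.7 in SCCs and 71.6 in non-SCCs, and its ratio of -0.46 equals that of TIMM13 at this rounding. It was the one CHCHD gene past 1.2-fold, where 7.59% of all tested genes were lower and 17.4% higher by that much. CHCHD2, which moves between mitochondria and nucleus, was at 643 in SCCs and 717 in non-SCCs, a ratio of -0.16. CHCHD10, its relative and a gene mutated in motor neuron disease, was at 43.3 in SCCs and 50.6 in non-SCCs, a ratio of -0.22. CHCHD7 was at 101 in SCCs and 114 in non-SCCs, and CHCHD5 at 33.3 in SCCs and 33.8 in non-SCCs. With the level, length and GC trends removed, the ratio of CHCHD2 was 0.00082.

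The MICOS complex, which shapes the cristae, takes its subunits CHCHD3 and CHCHD6 from this family, and the pair split. CHCHD3 was at 86.6 in SCCs and 102 in non-SCCs, a log2 ratio of -0.24. CHCHD6 was at 38.9 in SCCs and 34.9 in non-SCCs, a ratio of 0.15. The inner membrane peptidase, which cleaves sorting signals, had neither of its genes past 1.2-fold. IMMP1L was at 13.8 in SCCs and 13.2 in non-SCCs, a ratio of 0.05, and IMMP2L was at 2.44 in SCCs and 2.62 in non-SCCs, a ratio of -0.07.

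Promoter stretches of GRPEL2 and CHCHD2 are shown because GRPEL2 had the highest ratio of the group and CHCHD2, with a ratio of -0.16, holds the same motif. Capitals mark CCGGAAGT or its other strand, ACTTCCGG, a motif bound by ETS transcription factors such as GABPA, which is known to act on nuclear genes of mitochondria. Outside the stretch printed here, the GRPEL2 window holds another match to this motif nearer to its start, and GCGCNNGCGC past the start. The GRPEL2 stretch is chr5:149345334-149345399 on the plus strand, 165 to 100 bases before the start. The CHCHD2 stretch is chr7:56106619-56106706 on the minus strand, 230 to 143 bases before the start.
GRPEL2: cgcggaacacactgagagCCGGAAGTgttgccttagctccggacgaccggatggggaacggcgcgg
CHCHD2: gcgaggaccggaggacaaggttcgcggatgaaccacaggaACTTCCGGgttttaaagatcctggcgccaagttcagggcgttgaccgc

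Of the 44 genes, 39 had a RefSeq promoter window of 300 bases, 37 of them tested. CCGGAAGT stood on either strand in 11 of the 37 windows, or 29.7%, against 9.15% of windows of tested genes and 4.42% of all windows. Among genes at least 1.2-fold lower it was in 1 of 9 windows, and among the others in 10 of 28. Import genes with it had a median log2 ratio of -0.05, and those without it -0.17. Over all tested genes with a promoter window the order was the other way round, with medians of -0.0028 for the 955 genes with it and 0.03 for the 9478 without it. GCGCNNGCGC was in 9 of the 37 windows, or 24.3%, against 16.3% of windows of tested genes and 8.73% of all windows. The E-box CACGTG was in 4 windows, or 10.8%, against 10.2% of those of tested genes and 7.41% of all. AANATGGCG, a motif of the factor YY1, was also in 4, against 7.05% of those of tested genes and 3.34% of all. Matches to different motifs were counted separately even where they overlap. These matches describe the sequence and show no binding.

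Of the 11 pairs of related genes set, TIMM10 and TIMM10B differed most, with log2 ratios of -0.42 for TIMM10 and 0.09 for TIMM10B, a difference of -0.51. CHCHD3 and CHCHD6 differed by -0.40, and GRPEL1 and GRPEL2 by -0.27. GRPEL2 thus made up 35.6% of the summed GRPEL level in SCCs and 31.2% in non-SCCs. CHCHD6 made up 31.0% of the sum of CHCHD3 and CHCHD6 in SCCs and 25.4% in non-SCCs. Such shares can be read between the libraries only, since the transcripts differ in length. TIMM17A and TIMM17B differed by -0.14, TIMM23 and TIMM23B by -0.19, and MTX1 and MTX3 by -0.015. TOMM20L was listed at 0, so its pair gives no difference.

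**Figure D4:**
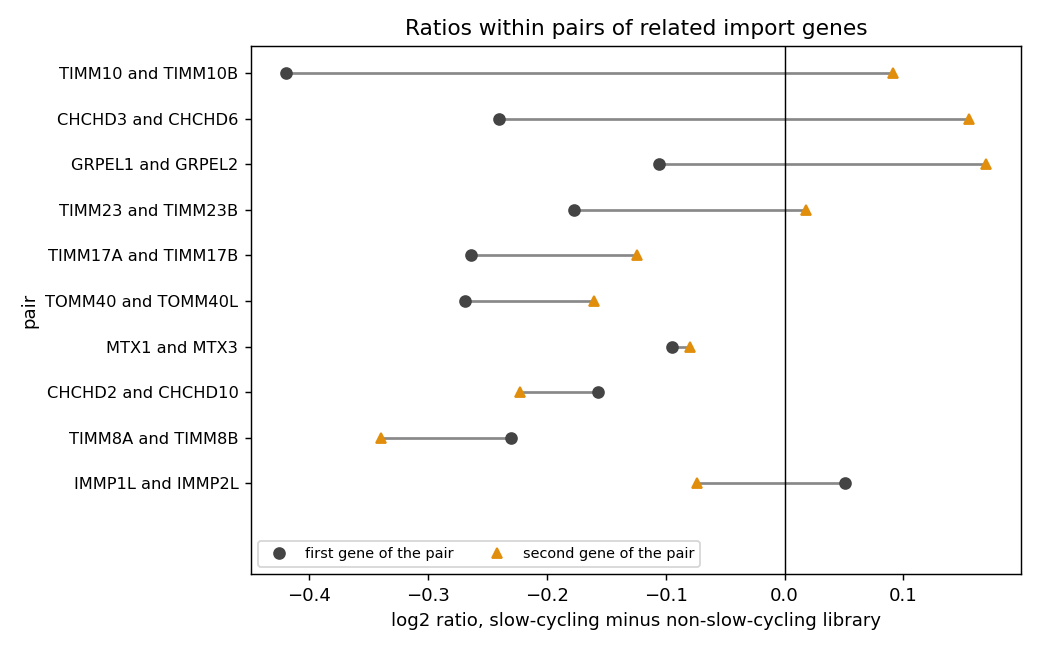
Log2 ratios, slow-cycling minus non-slow-cycling library, of the genes of 10 pairs, with circles for the first and triangles for the second gene named. In the pairs of TIMM10, CHCHD3, GRPEL1 and TIMM23 the first gene lies below 0 and the second above it.

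Ratios over all genes moved with the level, so the import genes were also read beside genes of like level. At mean levels of 64 or more, 17 of 18 import genes had a ratio below 0, against 66% of all 2705 tested genes there, and 7 of the 18 were at least 1.2-fold lower, against 6.99%. None was at least 1.2-fold higher, against 3.84%. Their median log2 ratio was -0.21, against -0.06. At mean levels of 16 to 64, 16 of 22 were below 0, against 44.8%, 5 of 22 were at least 1.2-fold lower, against 5.41%, and none was at least 1.2-fold higher, against 8.41%. The import median there was -0.10, against 0.02. Transcript length also moved with the ratio. For transcripts of at most 1000 bases the median was -0.19 over 12 import genes, against -0.06 over all tested genes. For longer ones it was -0.10 over 30 import genes, against 0.04. Among the short ones 4 of 12 import genes were at least 1.2-fold lower, against 20.1% of all. With the level trend removed the median of the import genes was -0.13, and with level, length and GC trends removed it was -0.10, with 8 genes at least 1.2-fold lower. These 8, among them TIMM13, CHCHD1, DNLZ, TIMM10 and PAM16, all belong to the 12. The share of all tested genes past 1.2-fold after that removal was not computed, and the 7.59% holds for unadjusted ratios only.

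**Figure D5:**
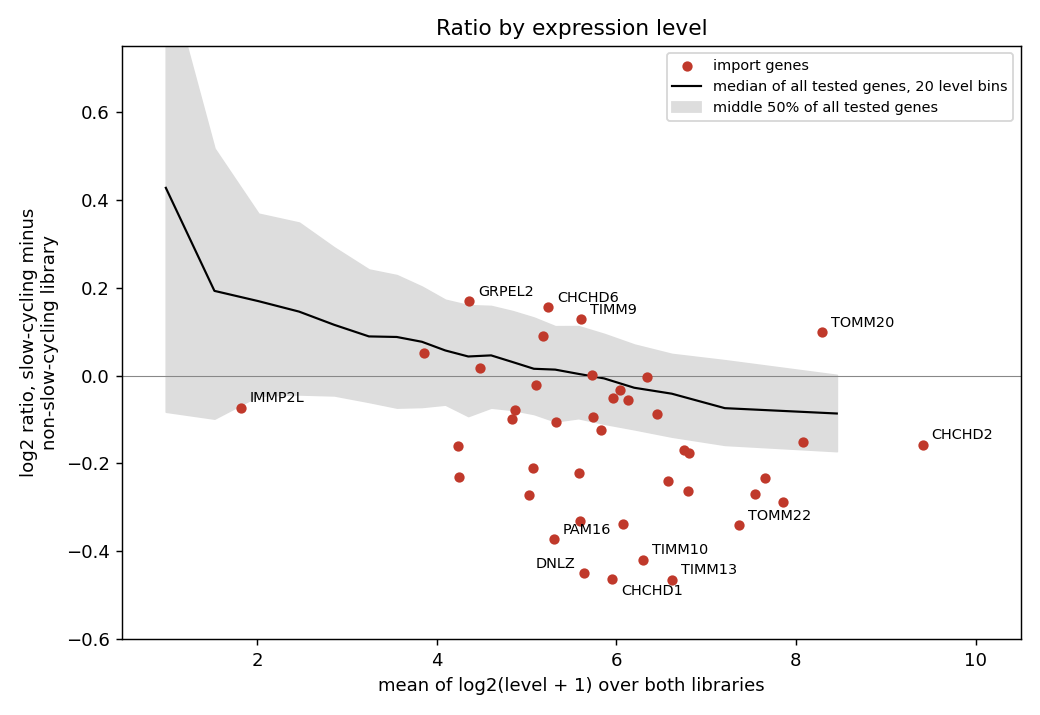
Log2 ratio of the import genes (points) against the mean of log2(level + 1) over both libraries, with the median of all tested genes in 20 level bins (line) and their middle 50% (grey band). TIMM13, CHCHD1, DNLZ, TIMM10 and PAM16 lie well under the band. TOMM20 lies above it, as do CHCHD6 and, by less, TIMM9 and GRPEL2.

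The wider import pathway had a median nearer to 0 but below it. Of 33 other genes of chaperones, processing peptidases and membrane partners, 32 were tested, 25 had a ratio below 0, against 43.8% of all tested genes, and none was at least 1.2-fold higher, against 17.4%. Of the 32, 3 were at least 1.2-fold lower, a share near the 7.59% of all tested genes. Their median log2 ratio was -0.09. The lowest was MIPEP, the peptidase that trims octapeptides from imported precursors, at 11.3 in SCCs and 15.2 in non-SCCs, a ratio of -0.40. HSPE1, the lid of the matrix chaperonin, was at 390 in SCCs and 478 in non-SCCs, a ratio of -0.29, and HSP90AA1, a cytosolic chaperone that hands precursors to TOMM70, was at 1153 in SCCs and 1384 in non-SCCs, a ratio of -0.26. HSPA9 itself was at 322 in SCCs and 344 in non-SCCs. The highest were XPNPEP3, a peptidase, at 9.88 in SCCs and 8.32 in non-SCCs, a ratio of 0.22, APOOL, a MICOS subunit, at 7.54 in SCCs and 6.40 in non-SCCs, a ratio of 0.21, and GFER, the oxidase that recharges CHCHD4, which had a ratio of 0.13. DNAJC15, a J protein of the motor, was listed at 0 in both libraries.

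Other small proteins with twin cysteine motifs include many substrates of CHCHD4. Of 14 genes, 3 were at least 1.2-fold lower, against 7.59% of all tested genes, and 11 had a ratio below 0, against 43.8%. Their median log2 ratio was -0.12, or -0.07 with the level trend removed. COA6, an assembly factor of cytochrome oxidase, was at 52.7 in SCCs and 66.6 in non-SCCs, a ratio of -0.33. NDUFA8 of complex I was at 66.9 in SCCs and 83.0 in non-SCCs, a ratio of -0.31, and CMC1 was at 30.0 in SCCs and 36.4 in non-SCCs, a ratio of -0.27. At the other end COX19, a copper-handling assembly factor, was at 22.2 in SCCs and 18.5 in non-SCCs, a ratio of 0.25, COX17 was at 82.7 in SCCs and 80.1 in non-SCCs, a ratio of 0.04, and COA5 was at 21.6 in both. Other mitochondrial gene families had medians near that of the import genes. The 78 mitochondrial ribosomal protein genes had a median of -0.19 and the 47 NDUF genes of complex I one of -0.18, and no test of a difference from the import genes was possible with 1 library per group.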

How the data were processed

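Per the labels' protocols, RNA was extracted with a phenol-based reagent, and the library kit was a stranded one for mRNA. The submitters' processing notes name the build hg38 and the sources name no aligner, counter or annotation. The authors deposited 1 column per library, called normalized per the file headers. These deposited values were taken as log2 values, since they hold none below 0, reach 15.6 in SCCs and 15.2 in non-SCCs, and sum to 983638 in SCCs and 984120 in non-SCCs once 1 is subtracted from 2 raised to each. Lines of 1 gene ID were summed (174 lines), and genes at 1 per-million unit or more in at least 1 library were tested. The pseudocount was 1, and fold changes on this scale understate differences of low genes. Length and GC are medians over GENCODE 29 basic transcripts, known for 97.6% of tested genes. Transcript overlaps use the same release.

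No p-value was computed. The import genes, roles, pairs and other lists were chosen with earlier results of these data known. Levels or ratios are printed for genes past 1.2-fold, the extremes of each role, the pairs and main subunits, and for the 3 highest and lowest of each other list. Others were named after their values were seen. The ratio, the 1.2-fold count and the removal of the level trend were tested on simulated data with shifts of 1.5-fold. Removal of length and GC trends was not tested in this way. Python 3.11.15, numpy 2.4.6 and pandas 2.3.3 were used. Alternatives were other scalings, filters, folds and pseudocounts, trend removal, and leaving out genes that share sequence.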

Additional observations from a re-analysis of the deposited data

How the results depend on the processing

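The median of the import genes stayed below 0 under every alternative run, between -0.19 (median of all genes set to 0) and -0.10 (level, length and GC trends removed, added after seeing the data), and was -0.11 without genes sharing at least 10% of exon bases. The count at least 1.2-fold lower ranged from 8 to 14 at that fold, without the share of all tested genes under each alternative. With a 1.1-fold threshold 22 genes were lower and 2 higher. Over all tested genes, the 19th percentile of the log2 ratio was -0.14 and the 68th was 0.14, both near 1.1-fold. With 1.5-fold 0 were lower, against 1.41% of all tested genes. After removal of the level trend the inner membrane peptidase median was -0.13, and TOMM40 minus TOMM40L was 0.0087, where -0.11 was found without it. Of 546 values recomputed, 533 moved by no more than 0.1 (log2) or 1.5 times (counts), and none past 1.2-fold turned round. Many of these could not move, because other filters or protein-coding genes alone leave the ratio of each kept gene as it was. The count of 533 is thus no measure of stability. Setting the median of all genes to 0 shifts every ratio by 0.03 and turned the ratios of MTX2 and TIMM23B. Removal of the level trend changed the sign of 3 gene ratios. Removal of level, length and GC trends changed that of 4, among them CHCHD2 and SAMM50. Identity of proteins was not compared, so only TIMM23 and TIMM23B were left out as copies, with the median at -0.15. No paired analysis was possible because each group has 1 library. Without replicates or read depth, no error can be given for any ratio.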

Other observations

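The tables also held 43 pseudogene entries of 13 import genes, 11 of them copies of CHCHD2, and each of the 43 had the value 0 in SCCs and in non-SCCs. Of the entries whose symbol holds a hyphen, GRPEL2-AS1, antisense to GRPEL2, was at 0.140 in SCCs but listed at 0 in non-SCCs, and CORO7-PAM16 had a log2 ratio of -0.32.

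Several import genes share a start region with a gene read from the other strand, and these neighbours were named after their values were seen. TIMM21 starts 646 bases from FBXO15, which was at 3.94 in SCCs and 2.93 in non-SCCs, a log2 ratio of 0.33 where TIMM21 had -0.33. All tested genes at mean levels of 1 to 4, where FBXO15 lay, had a median log2 ratio of 0.18 and an upper quartile of 0.45. CHCHD4 starts 70 bases from TMEM43, which was at 54.3 in SCCs and 59.5 in non-SCCs, a ratio of -0.13. TIMM29 starts 52 bases from YIPF2, at 26.7 in SCCs and 28.0 in non-SCCs, and IMMP1L starts 55 bases from ELP4, at 15.6 in SCCs and 17.1 in non-SCCs.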
